A study of Mus musculus with 2 samples.

Results

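The miR-148 and miR-152 family of the mouse comprises 6 mature microRNA strands from 3 hairpins, named mmu-miR-148a-3p, mmu-miR-148a-5p, mmu-miR-148b-3p, mmu-miR-148b-5p, mmu-miR-152-3p and mmu-miR-152-5p in the deposited tables of liver small RNA. The strands were picked by these exact names, and the species prefix is left out below. All 6 were listed in both tables, among 484 microRNA names in experiment 1 and 1915 in experiment 2. The livers came from female C57BL/6 mice of 8 to 10 weeks. The ethanol-fed mice received the Lieber-DeCarli liquid diet with 5% (v/v) ethanol for 10 days, following 5 days on the control liquid diet, and the pair-fed mice received an isocaloric control diet. On day 16 the ethanol-fed mice were gavaged with 6 g/kg ethanol and the pair-fed mice with isocaloric dextrin-maltose, and the livers were collected 9 h later. The design statement of the series speaks of 16 days of ethanol instead. The 2 experiments each hold 1 ethanol-fed and 1 pair-fed library, whose animals or pools were not named, so no spread between animals could be given and no p-value was computed within an experiment. A limma fit over both experiments, with the experiment as a block, had 1 residual degree of freedom. It called 0 of the 5 members tested at an adjusted p under 0.05, and 0 at an unadjusted p under 0.05. Over all 283 microRNAs in the fit these numbers were 0 and 10, so it says little about the members in particular. The differences below are between libraries, and their intervals cover counting error only.

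MicroRNAs are short RNAs cut from a hairpin precursor. One strand, the guide, is usually retained in an Argonaute protein, where its seed, the bases near the 5′ end, pairs with sites in messenger RNAs and lowers their output. The opposite strand, the passenger, is mostly degraded. In this family the guide is the 3p strand, and the 3 guides share a seed, so that they are thought to address overlapping sets of targets, such as the maintenance DNA methyltransferase *Dnmt1*. miR-148a is among the abundant microRNAs of hepatocytes and is known to repress the cholesterol exporter *Abca1*.

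The mature sequences of the 3 guides are shown because the shared seed is what makes them one family. They were taken from RefSeq (GRCm38.p6), read 5′ to 3′, and have the seed (bases 2 to 8) in capitals.
miR-148a-3p: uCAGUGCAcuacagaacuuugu
miR-148b-3p: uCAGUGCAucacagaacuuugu
miR-152-3p: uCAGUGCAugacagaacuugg

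Of the 1679 mature mouse microRNAs in the RefSeq table, 3 had this seed, all of them members. Counted from 1 at the 5′ end, miR-148b-3p differed from miR-148a-3p at 2 of 22 positions, C9U and U10C. miR-152-3p differed from miR-148a-3p at 3 of 21 compared positions, C9U, U10G and U20G, and from miR-148b-3p at 2, C10G and U20G. All of the differences between guides thus lay outside the seed. As the guides differ by so few bases, reads with sequencing errors could have been assigned to the wrong member, and the rule used for this was not given in the sources used here. In experiment 1, miR-148b-3p held 0.0647% of the guide reads of the pair-fed library, so that at most this share could have been misassigned to it there. In the pair-fed library of experiment 2 its share was 1.17%. Such shares do not limit what part of the reads of miR-148b-3p itself was misassigned.

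The passenger strands are shown because, unlike the guides, they do not all have the same bases 2 to 8. Capitals again mark bases 2 to 8.
miR-148a-5p: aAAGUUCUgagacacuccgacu
miR-148b-5p: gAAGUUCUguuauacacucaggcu
miR-152-5p: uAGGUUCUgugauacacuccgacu

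miR-148a-5p and miR-148b-5p had the same bases 2 to 8, whereas miR-152-5p differed from them there. In an ungapped comparison from the 5′ end, miR-148a-5p was identical to miR-148b-5p at 13 of 22 positions and to miR-152-5p at 12 of 22. However, miR-148a-5p has 22 bases and the other passengers have 24, and it ends in the same run of bases as miR-152-5p. Without a gap these ends are not aligned, so the comparison can understate the identity of miR-148a-5p with the others. miR-148b-5p and miR-152-5p were identical at 19 of 24 positions.

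The hairpins are shown because the guide-to-passenger ratios reported below compare the strands marked in them. Both mature strands are in capitals.
Mir148a: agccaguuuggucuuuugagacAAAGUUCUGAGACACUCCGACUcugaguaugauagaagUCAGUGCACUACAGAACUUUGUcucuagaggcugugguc
Mir148b: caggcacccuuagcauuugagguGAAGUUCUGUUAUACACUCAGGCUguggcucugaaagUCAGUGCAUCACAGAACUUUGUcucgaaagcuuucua
Mir152: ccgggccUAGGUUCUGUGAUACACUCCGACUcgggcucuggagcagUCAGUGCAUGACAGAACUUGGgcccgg

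In GRCm38.p6, Mir148a (99 nt) lies on the minus strand at chr6:51269812-51269910 and in no annotated gene, and the nearest one, the long noncoding RNA gene *Gm32479*, is 13622 bp away. Mir148b (97 nt) lies on the plus strand at chr15:103285125-103285221, in intron 1 of *Copz1*. Mir152 (73 nt) lies on the plus strand at chr11:96850393-96850465, in intron 1 of *Copz2*. *Copz1* and *Copz2* encode zeta subunits of the coatomer, the coat of vesicles that travel back from the Golgi. Both intronic hairpins have the orientation of their host genes in GENCODE vM21. No hairpin had another microRNA gene of the RefSeq table closer than 65234 bp, so the members do not come from a shared cluster. Mir152 was the most GC-rich hairpin with 61.6%, against 45.5% for Mir148a and 45.4% for Mir148b. The predicted minimum free energies were -43.5 kcal/mol for Mir152, -41.0 kcal/mol for Mir148a and -30.9 kcal/mol for Mir148b.

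The libraries of experiment 1 had 4170601 (pair-fed) and 4311802 (ethanol-fed) reads on microRNAs, and those of experiment 2 an estimated 10811818 and 10819699. Levels are given in reads per 1000000 reads on microRNAs (RPM). All 6 microRNAs of a hepatocyte list were above 0 in both tables. Their summed levels were 392441 RPM (pair-fed) and 376670 RPM (ethanol-fed) in experiment 1 and 324452 and 291845 RPM in experiment 2. In experiment 1 almost all of the sum came from miR-192-5p, with 388161 RPM (pair-fed) and 373090 RPM (ethanol-fed). miR-122-5p, the best known hepatocyte microRNA, was at 2971 RPM in the pair-fed library of experiment 1 and at 182938 RPM in that of experiment 2. The red cell list, with 4 of 4 microRNAs above 0 in both tables, summed to 11559 RPM (pair-fed) and 33915 RPM (ethanol-fed) in experiment 1. In experiment 2 it summed to 1826 and 1152 RPM. Almost all of the sum of experiment 1 came from miR-486a-5p (11512 and 33721 RPM), while miR-451a was at 25.7 and 133 RPM there. The pancreas list, of which all 4 were above 0 in experiment 2, summed to 5.92 and 113 RPM there. In experiment 1, miR-217-5p and miR-216a-5p of this list were not listed, and the others summed to 85.1 RPM (pair-fed) and 48.5 RPM (ethanol-fed). The part of these lists in the values of the family was not tested.

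The guide miR-148a-3p made up almost all of the family. In experiment 1 mmu-miR-148a-3p had 293272 reads or 70319 RPM (pair-fed) and 330768 reads or 76712 RPM (ethanol-fed). It ranked 5th among microRNAs on either diet, behind miR-192-5p, miR-143-3p, let-7f-5p and miR-10a-5p. In experiment 2 it had 185558 RPM (pair-fed) and 187898 RPM (ethanol-fed), and it was the most abundant microRNA in both, ahead of miR-122-5p and miR-192-5p. Its share of all microRNA reads was 7.03% (95% exact binomial interval 7.01% to 7.06%) and 7.67% (7.65% to 7.70%) for pair-fed and ethanol-fed mice of experiment 1. In experiment 2 the corresponding shares were 18.6% (18.5% to 18.6%) and 18.8% (18.8% to 18.8%).

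The guide miR-148b-3p was much less abundant. In experiment 1 it was at 45.6 RPM (pair-fed, 190 reads) and 38.7 RPM (ethanol-fed, 167 reads), and in experiment 2 at 2221 RPM and 2049 RPM. It ranked 106th and 114th in experiment 1, and 35th and 37th in experiment 2. The ethanol-fed library was thus the lower one in both experiments, by less than the counting error in experiment 1.

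The guide miR-152-3p was the least abundant guide in 3 of the 4 libraries. It was at 8.63 RPM (pair-fed, 36 reads) and 5.10 RPM (ethanol-fed, 22 reads) in experiment 1, and at 1733 RPM and 2250 RPM in experiment 2. In experiment 1 miR-148b-3p had 5.28 reads (3.68 to 7.76) for each read of miR-152-3p in the pair-fed and 7.59 (4.85 to 12.4) in the ethanol-fed library. In experiment 2 the same ratio was 1.28 (1.26 to 1.31) in the pair-fed and 0.910 (0.894 to 0.927) in the ethanol-fed library. The order of these guides therefore differed between the libraries of experiment 2, where miR-152-3p passed miR-148b-3p in the ethanol-fed one.

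**Figure D1:**
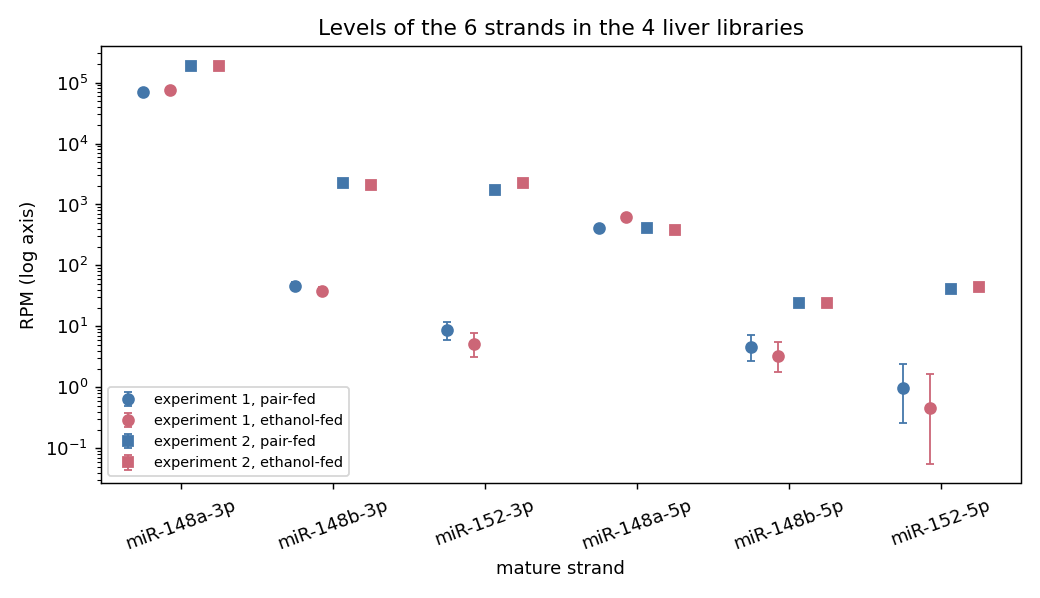
Level of each of the 6 strands in RPM (log axis) in the 4 libraries, with circles for experiment 1, squares for experiment 2, blue for pair-fed and red for ethanol-fed; bars are 95% exact counting intervals, often smaller than the symbols. miR-148a-3p lies between 70319 and 187898 RPM in every library, and the symbols of an experiment lie closer to each other than to those of the other experiment for the remaining guides.

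Among the passengers, miR-148a-5p was the most abundant. In experiment 1 it was at 407 RPM (pair-fed, 1697 reads) and 625 RPM (ethanol-fed, 2696 reads), and in experiment 2 at 419 and 377 RPM. In experiment 1 this passenger was more abundant than the guides miR-148b-3p and miR-152-3p, whereas in experiment 2 it was below both. miR-148b-5p had 19 and 14 reads in experiment 1, or 4.56 and 3.25 RPM, and was at 24.2 and 24.1 RPM in experiment 2. miR-152-5p had 4 and 2 reads in experiment 1 and was at 41.7 and 44.3 RPM in experiment 2. The latter 2 passengers were thus close to the limit of counting in experiment 1.

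To ask whether ethanol-fed and pair-fed livers differed in these microRNAs, the level in the ethanol-fed library was divided by that in the pair-fed library and expressed as a log2 ratio. A read was added to each library first, and microRNAs with fewer than 10 reads over both libraries of an experiment were left out. None of the 5 members tested in experiment 1 and none of the 6 in experiment 2 was 2-fold higher or lower. Over all microRNAs tested, 25.5% of 302 in experiment 1 and 25.8% of 469 in experiment 2 passed that fold. By direction, 12.6% were higher and 12.9% lower in experiment 1, and 10.7% were higher and 15.1% lower in experiment 2. As whole liver was used, fewer cells of a type and less RNA per cell cannot be told apart in any of these values. Of the members tested, 2 were above and 3 below 0 in experiment 1, and 3 were above and 3 below 0 in experiment 2. The median log2 ratio of the members was -0.23 in experiment 1 and 0.0058 in experiment 2, and that of all microRNAs tested was -0.013 and 0.0026.

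For miR-148a-3p the log2 ratio was 0.13 (95% counting interval 0.12 to 0.13) in experiment 1 and 0.018 (0.015 to 0.021) in experiment 2. This corresponds to 1.09-fold and 1.01-fold higher levels in the ethanol-fed libraries. Other scalings gave log2 ratios of 0.090 to 0.20 in experiment 1 and of 0.0057 to 0.023 in experiment 2, a range wider than the counting intervals. The intervals are narrow because the microRNA had so many reads, and they say nothing of the spread between animals. In experiment 1, 258 of the 302 microRNAs tested had a larger absolute log2 ratio, and in experiment 2, 453 of 469 did. These rankings include rare microRNAs, whose ratios have a larger counting error. Of the more abundant microRNAs in experiment 1, miR-192-5p (-0.057) and miR-143-3p (-0.0081) had smaller absolute log2 ratios. Those of let-7f-5p (-0.22) and miR-10a-5p (-0.22) were larger. In experiment 2, miR-122-5p (-0.22) and miR-192-5p (-0.097), the next most abundant ones, had larger absolute log2 ratios.

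For miR-148b-3p the log2 ratio was -0.23 (-0.54 to 0.07) in experiment 1 and -0.12 (-0.14 to -0.09) in experiment 2. The interval of experiment 1 includes both 0 and the value of experiment 2. For miR-152-3p the log2 ratio was -0.73 (-1.59 to 0.05) in experiment 1, where it rested on 58 reads in all, and 0.38 (0.35 to 0.40) in experiment 2. The level in the ethanol-fed library of experiment 2 was thus 1.30-fold that of the pair-fed library, the largest difference of any member in that experiment. Of the 469 microRNAs tested, 251 had a larger one. This ranking of experiment 2 also includes rare microRNAs, whose ratios have a larger counting error. In that experiment, the mesenchyme list, which marks stellate cells and smooth muscle, summed to 19700 RPM (pair-fed) and 24782 RPM (ethanol-fed), with 5 of 5 microRNAs above 0 in both libraries. Of its 5 members, 2 were above and 3 below a log2 ratio of 0, and miR-143-3p, which held most of its reads, had 0.40. In experiment 1, where miR-152-3p was lower, the list summed to 96550 and 96122 RPM, and 4 of its 5 members were above a log2 ratio of 0, with a median of 0.62. Other marker lists also differed between the libraries of experiment 2. The epithelium list (bile duct and pancreas) was at 519 and 887 RPM, with 5 of 5 members above a log2 ratio of 0 and a median of 0.81. The endothelium list was at 22335 and 26332 RPM, with 2 of 2 members above 0. The white cell list was at 886 and 473 RPM, with 5 of 5 members below 0 and a median of -0.87. The part of these lists in the value of miR-152-3p was not tested.

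Among the passengers, miR-148a-5p had a log2 ratio of 0.62 (0.53 to 0.71) in experiment 1 and -0.15 (-0.21 to -0.09) in experiment 2. It was thus 1.54-fold higher in the ethanol-fed library of the former and 0.900-fold in the latter, and neither counting interval included 0. miR-148b-5p had -0.46 (-1.60 to 0.58) and -0.0065 (-0.26 to 0.25). miR-152-5p was not tested in experiment 1 and had 0.09 (-0.10 to 0.27) in experiment 2. For miR-148b-5p and miR-152-5p no difference was detectable at this depth.

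**Figure D2:**
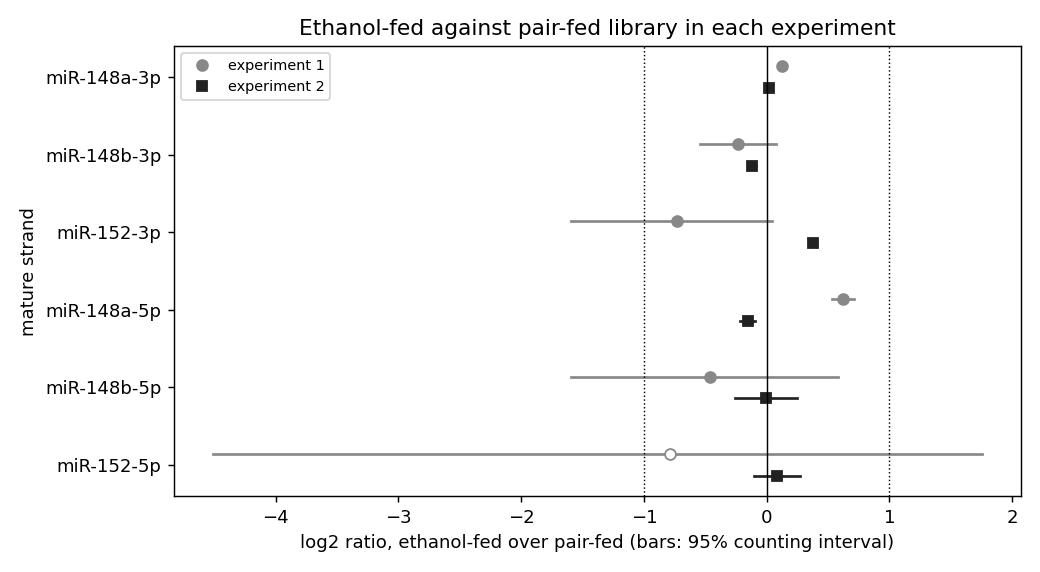
Ethanol-fed over pair-fed level of each strand as a log2 ratio, with grey circles for experiment 1 and black squares for experiment 2; bars are 95% counting intervals, the open circle marks a strand with under 10 reads in experiment 1, and dotted lines mark 2-fold. All points lie within 2-fold, and miR-148a-5p and miR-152-3p lie on opposite sides of 0 in the 2 experiments.

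The 3 guides were then added, since they share a seed. Their sum was 70373 RPM (pair-fed) and 76756 RPM (ethanol-fed) in experiment 1, with a log2 ratio of 0.13 (0.12 to 0.13). In experiment 2 the sum was 189512 and 192197 RPM, with a log2 ratio of 0.020 (0.018 to 0.023). The sum followed miR-148a-3p, which held 99.9% of the guide reads in both libraries of experiment 1, and 97.9% (pair-fed) and 97.8% (ethanol-fed) in experiment 2. In experiment 2, the share of miR-148b-3p was 1.17% (1.16% to 1.19%) in the pair-fed and 1.07% (1.05% to 1.08%) in the ethanol-fed library. The share of miR-152-3p was 0.915% (0.902% to 0.928%) and 1.17% (1.16% to 1.19%). The share of miR-148b-3p was thus lower, and that of miR-152-3p higher, in the ethanol-fed library of experiment 2.

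Differences between members in their log2 ratios do not depend on the scaling of the libraries, and 6 pairs were compared in each experiment. In experiment 1, the log2 ratio of miR-148a-3p exceeded that of miR-148b-3p by 0.36 (exact conditional interval 0.05 to 0.67) and that of miR-152-3p by 0.86 (0.08 to 1.72). In experiment 2, it exceeded that of miR-148b-3p by 0.13 (0.11 to 0.16) and was below that of miR-152-3p, with a difference of -0.36 (-0.39 to -0.33). The order of miR-148a-3p and miR-148b-3p was therefore the same in both experiments, and that of miR-148a-3p and miR-152-3p was reversed. Between miR-148b-3p and miR-152-3p the difference was 0.50 (-0.35 to 1.42) in experiment 1 and -0.49 (-0.53 to -0.45) in experiment 2. These differences cover counting error only and are not adjusted for the number of pairs.

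**Figure D3:**
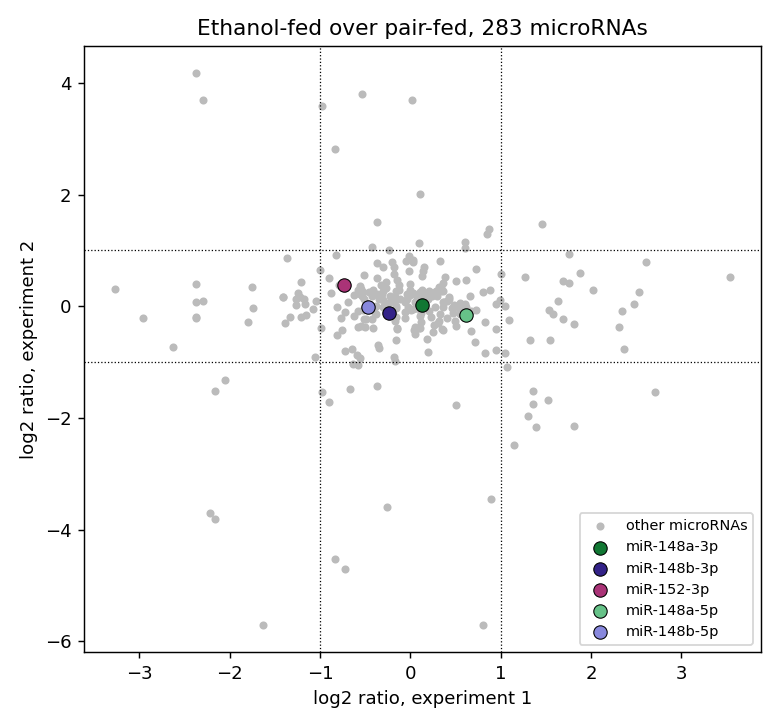
Ethanol-fed over pair-fed level as a log2 ratio in experiment 1 (horizontal) and experiment 2 (vertical) for the 283 microRNAs tested in both; coloured points are the 5 strands of the family among them, grey points are the others, and dotted lines mark 2-fold. The 5 strands lie inside the 2-fold lines, spread along the horizontal axis from -0.73 for miR-152-3p to 0.62 for miR-148a-5p.

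The 3p strand was the major strand of each hairpin in every library. Of the miR-148a reads, 99.4% (99.4% to 99.5%) in the pair-fed and 99.2% (99.2% to 99.2%) in the ethanol-fed library of experiment 1 came from the 3p strand, against 99.8% in both libraries of experiment 2. In 3p reads per 5p read this was 173 and 123 in experiment 1, and 443 and 499 in experiment 2. The ratio was thus lower in the ethanol-fed library of experiment 1 and higher in that of experiment 2. The log2 ratio of the 3p strand less that of the 5p strand was -0.49 (-0.58 to -0.41) in experiment 1 and 0.17 (0.11 to 0.23) in experiment 2. Among hairpins with at least 10 reads on each strand, 45 of 74 in experiment 1 and 88 of 128 in experiment 2 had a larger shift. These counts, like that for miR-152 below, include hairpins with few reads, whose shifts have a larger counting error.

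The other hairpins had more passenger reads relative to the guide. For miR-148b, 3p reads per 5p read were 10.0 (pair-fed) and 11.9 (ethanol-fed) in experiment 1, and 91.6 and 84.9 in experiment 2. For miR-152 they were 9.00 and 11.0 in experiment 1, and 41.6 and 50.8 in experiment 2. The strands of miR-152 differed in log2 ratio by 0.29 (0.10 to 0.48) in experiment 2, as the guide was higher in the ethanol-fed library by more than the passenger, and 66 of 128 hairpins had a larger shift. The strands of miR-148b differed by -0.11 (-0.36 to 0.14) in that experiment, and by 0.23 (-0.87 to 1.41) in experiment 1, where miR-152 had only 6 reads on its 5p strand.

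**Figure D4:**
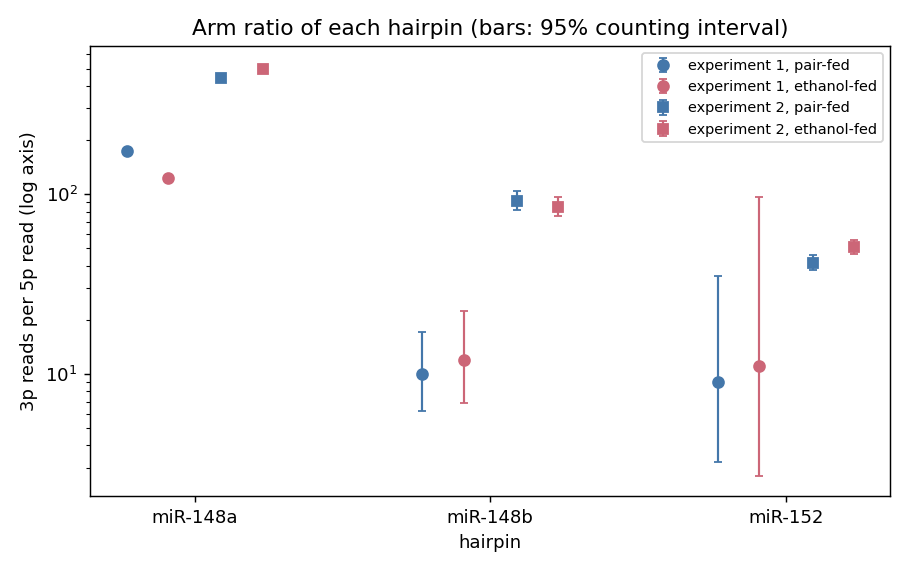
3p reads per 5p read (log axis) of each hairpin in the 4 libraries, with circles for experiment 1, squares for experiment 2, blue for pair-fed and red for ethanol-fed; bars are 95% counting intervals. miR-148a has the highest ratio in every library, from 123 to 499, and every hairpin has a higher ratio in experiment 2 than in experiment 1.

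Levels set side by side across the experiments come from tables that were normalized separately, and they were not tested. In the pair-fed libraries, with 1 read added, miR-148a-3p was 2.64-fold and miR-148a-5p 1.03-fold higher in experiment 2 than in experiment 1. miR-148b-3p was 48.5-fold and miR-152-3p 195-fold higher. miR-148b-5p was 5.07-fold and miR-152-5p 34.9-fold higher. The members thus spanned a wide range, with larger differences between the experiments for both strands of miR-152 than for those of miR-148a. The median log2 difference of the 283 microRNAs tested in both experiments was 1.10, of which 2 had a larger one than miR-152-3p and 12 a larger one than miR-148b-3p. For each read of miR-152-3p there were 8146 reads (5884 to 11632) of miR-148a-3p in the pair-fed library of experiment 1 and 107 (106 to 109) in that of experiment 2. The makeup of the family therefore differed more between the experiments than between the diets within either, and the cause was not tested.

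**Figure D5:**
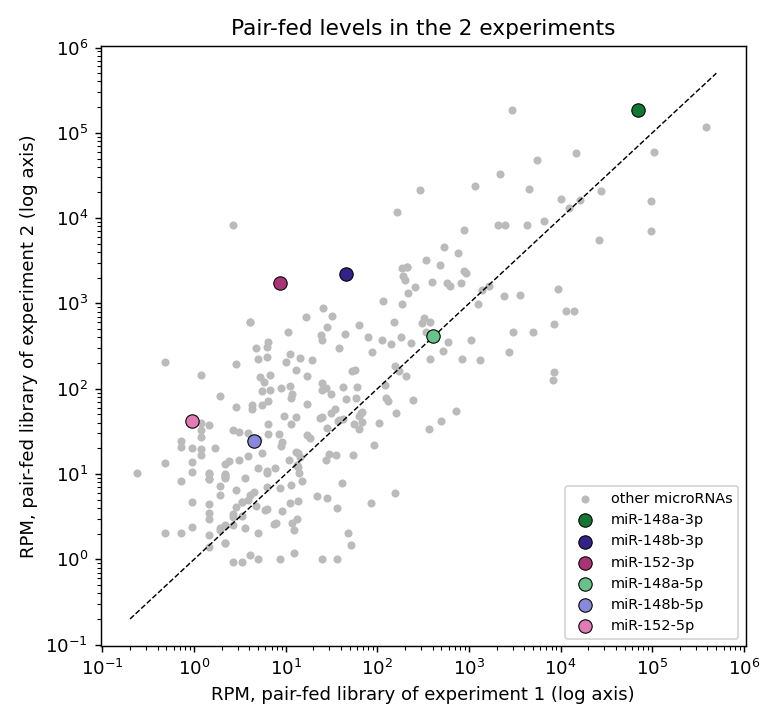
Pair-fed level in experiment 1 (horizontal) and experiment 2 (vertical) in RPM, both axes logarithmic, for the 277 microRNAs tested in both experiments and above 0 in both pair-fed libraries (grey) and the 6 strands (coloured); the dashed line marks equal RPM. miR-148a-5p lies close to the line (407 and 419 RPM), whereas miR-152-3p (8.63 and 1733 RPM) and miR-148b-3p (45.6 and 2221 RPM) lie at the upper edge of the points.

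Some microRNAs of other families hold bases 3 to 8 of the miR-148a-3p seed within their own bases 2 to 8. The RefSeq table gave 9 of them, and the more abundant ones are shown with these 6 bases in capitals.
miR-130a-3p: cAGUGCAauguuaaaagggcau
miR-301a-3p: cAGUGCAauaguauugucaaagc

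In miR-130a-3p and miR-301a-3p the shared bases begin 1 base earlier, at base 2. miR-130a-3p was at 729 RPM (pair-fed) and 844 RPM (ethanol-fed) in experiment 1, with a log2 ratio of 0.21 (0.14 to 0.28), and at 55.6 and 64.2 RPM in experiment 2, with 0.21 (0.05 to 0.37). Its level was thus higher in the ethanol-fed library of both experiments, beyond counting error. miR-301a-3p was at 36.2 and 30.1 RPM in experiment 1, with a log2 ratio of -0.26 (-0.61 to 0.08), and at 1.02 RPM in the pair-fed library of experiment 2 and listed at 0 in the ethanol-fed one. Unlike miR-148b-3p and miR-152-3p, both were lower in experiment 2 than in experiment 1. The remaining ones had few reads, namely miR-350-5p with 3 and 11 reads (log2 ratio 1.54, -0.09 to 4.31) and miR-130b-3p with 0 and 7 reads in experiment 1. miR-350-5p had 2.03 and 1.94 RPM in experiment 2, where miR-130b-3p was listed at 0. The other 5 were not listed in experiment 1 and were at 0 in experiment 2. Of the 3 tested in each experiment, 1 was past 2-fold in experiment 1, which was miR-350-5p with an interval that includes 0. The listed 0 of miR-301a-3p in experiment 2 can hide almost 10 reads, against 11 in the pair-fed library, so no fold is given for it. Summed, the 9 microRNAs came to 766 and 879 RPM in experiment 1 and 58.6 and 66.2 RPM in experiment 2, far below the sum of the 3 guides.

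The microRNAs most like each guide were sought by the distance between their pairs of log2 ratios, among 113 microRNAs with at least 100 reads in each of the 4 libraries. Closest to miR-148a-3p were miR-30e-5p (log2 ratios 0.15 in experiment 1 and 0.01 in experiment 2, distance 0.0210), miR-107-3p (0.08 and -0.03, distance 0.0722) and miR-194-5p (0.07 and 0.07, distance 0.0761). Closest to miR-148b-3p were miR-10b-5p (-0.20 and -0.13, distance 0.0348), miR-103-3p (-0.16 and -0.20, distance 0.111) and miR-30c-2-3p (-0.30 and -0.02, distance 0.119). Closest to miR-152-3p, which itself had fewer than 100 reads in experiment 1, was miR-100-5p (-0.72 and 0.32, distance 0.0542), followed by miR-378a-3p (-0.62 and 0.20, distance 0.206) and miR-151-3p (-0.55 and 0.24, distance 0.226). The distances rest on 2 values per microRNA.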

How the data were processed

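Small RNA was collected from total liver RNA by PAGE, amplified by RT-PCR and sequenced on an Illumina instrument. The deposited values of experiment 1 are counts, that is, unscaled read numbers per mature microRNA. Those of experiment 2 are RPM computed by the authors, with column sums of 999899 (pair-fed) and 999896 (ethanol-fed). That table also holds the authors' log2 fold changes and p-values, which were not used. The submitters' processing notes name the genome build mm8, and the aligner, microRNA annotation and counting rules are not given in the sources used here. The files hold no coordinates, and positions above are those of GRCm38.p6.

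The labels hold 1 sample per condition. Each of the 4 columns was matched to a condition by its name, which left 0 unmatched. The members and lists were chosen with earlier results of these data known, and the marker lists were written from general knowledge. The named microRNAs were the 6 members, those sharing the seed or its bases 3 to 8, the 3 nearest to each guide, the 3 most abundant of each library and markers given beside a result.

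Low values of experiment 2 rise in steps of 0.0925 RPM (pair-fed) or 0.0924 RPM (ethanol-fed), taken as 1 read each, and 97.0% of 296 and 96.6% of 291 values up to 60 RPM were whole multiples within 0.006 RPM. As the lowest value above 0 was 0.92 RPM, a listed 0 can hide almost 10 reads. A count of 0 in experiment 1 allows up to 0.719 RPM (pair-fed) or 0.696 RPM (ethanol-fed), taken as 3 counts. The log2 ratios have a pseudocount of 1 read, which understates the change of rare microRNAs. Intervals are exact (Clopper-Pearson, or conditional for differences between members) at 95% and cover counting error only, since PCR copies were not told apart. Within an experiment there is 1 library per condition, so no count model was fitted there. A limma 3.58.1 fit of the log2 ratios of both experiments, with the experiment as a block, was added after seeing the data. Read numbers were not corrected for the efficiency with which each sequence is captured and amplified. RefSeq sequences matched 421 of 484 names in experiment 1 and 1623 of 1915 in experiment 2. Ratios and intervals were tested on simulated data. Hairpins were folded with ViennaRNA 2.7.2, TMM factors among the alternatives came from edgeR 4.0.16 (R 4.3.3), and the rest was computed with scipy 1.17.1, pandas 2.3.3 and numpy 2.4.6 under Python 3.11.15.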

Additional observations from a re-analysis of the deposited data

Results flagged for a closer look

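The log2 ratios of 3 members had opposite signs in the 2 experiments. This was not particular to the family. Opposite signs were also seen for let-7f-5p (-0.22 in experiment 1 and 0.19 in experiment 2) and miR-21a-5p (0.11 and -0.12). The signs of miR-192-5p (-0.057 and -0.097) and miR-30a-5p (0.057 and 0.078) were the same. The share over all microRNAs is not given here. The difference between the experiments was not tested, as each holds 1 library per condition. For miR-148a-5p the log2 ratio of experiment 2 less that of experiment 1 was -0.77, for miR-152-3p it was 1.11 and for miR-152-5p 0.87. The value for miR-152-5p rests on 6 reads in experiment 1, and that for miR-152-3p on 58 reads there, where the counting interval included 0. For miR-148a-5p the counting intervals of both experiments left out 0.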

How the results depend on the processing

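No member with at least 10 reads passed 2-fold in either experiment under any scaling or pseudocount tried, and none changed sign. Replacing the listed zeros of experiment 2 could not change a member, as their lowest value there was 24.1 RPM. miR-152-5p, with 6 reads in experiment 1, had a log2 ratio of -1.01 there with a pseudocount of 0.1 read, against -0.79. The log2 ratio of the summed guides, 0.13 in experiment 1, was 0.16 with median-of-ratios size factors, 0.20 with TMM factors, 0.090 with miR-192-5p, the most abundant one, excluded from the total, 0.14 with the guides excluded and 0.17 with unscaled reads. In experiment 2 it was 0.0079 with median-of-ratios size factors, 0.017 with TMM factors, 0.024 with miR-148a-3p, the most abundant one there, excluded and 0.025 with the guides excluded, against 0.020. These scalings moved the sum beyond its counting error because that error is so small. Of the other 86 values of single microRNAs and hairpins under alternatives, 77 stayed within the counting error and 9 did not. All 9 were log2 ratios of miR-148a-3p, 5 in experiment 1 (0.090 to 0.20) and 4 in experiment 2 (0.0057 to 0.023).

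The number of microRNAs past 2-fold, 77 of 302 in experiment 1, was 201 of 484 with no minimum and 19 of 158 with a minimum of 100 reads. In experiment 2, 121 of 469 became 36 of 298 with that minimum and 72 of 469 with each 0 replaced by 0.92 RPM, the lowest listed value. Fewer or more rare microRNAs enter with another minimum, and a listed 0 no longer counts as 0 reads in the last setting. A limma fit over both experiments with the experiment as a block, added after seeing the data, had 2 pairs and 1 residual degree of freedom. It called 0 of 283 microRNAs at an adjusted p under 0.05 and 10 at an unadjusted p under 0.05. Of the 5 members in it, 0 were called, and their lowest adjusted p was 0.912 (miR-148b-5p). Leaving out a library would leave no ratio in its experiment. Depth limits miR-152-3p, miR-148b-5p and miR-152-5p in experiment 1.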
